A study of Ovis aries with 2 samples.

Results

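The genes described are those of cholesterol synthesis, uptake and trafficking, measured by RNA sequencing in granulosa cells of Hu sheep ewes fed above or below maintenance. Members were chosen by gene name from a list of 35 names. Of these, 28 names had 1 or more lines in the deposited table, which made up 32 of its 22881 transcript entries. The names LSS, CYP51A1, CYP51, SC5D, APOE, SCARB1 and OSBP had no matching line and are not analysed here. All 28 names found passed a mean level of at least 1 FPKM (fragments per kilobase of transcript and per 1e6 fragments), the threshold that left 11927 measured genes.

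Granulosa cells surround the oocyte inside the follicle and make oestradiol from androgen. The ewes were multiparous, 3 to 4 years old, and each diet was given during the luteal phase. The supplemented group of 8 ewes ate 1.5 times the maintenance ration (1560 g per ewe daily), and the restricted group of 8 ewes ate 0.5 times (520 g per ewe daily). The cell layer was scraped from follicles wider than 2.5 mm, and 5 µg of RNA per group entered the library. The labels name no untreated or maintenance-fed group and do not say how many ewes contributed RNA to a library. The data hold 1 library per diet, so spread between ewes was not measured, no test of the diets is possible and every difference below is between 2 libraries.

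Cholesterol is made from acetyl-CoA through mevalonate, isoprenoids, squalene and lanosterol, and it is also taken up from lipoproteins by cell surface receptors. When membranes of the endoplasmic reticulum hold little sterol, SCAP escorts the precursor of the transcription factor SREBP-2, the product of SREBF2, to the Golgi for activation, and INSIG proteins hold SCAP back when sterol is plentiful. In the follicle, cholesterol is the starting material of steroid hormones, and the granulosa layer has no blood vessels of its own before ovulation.

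Summed over all 22881 transcript entries, the recovered reads were 9426679 for the supplemented and 11299773 for the restricted library. Some entries share a locus, and whether shared reads count more than once is not known. Granulosa markers were abundant in both, with summed levels over 16 markers of 11370 and 25602 FPKM. Leukocyte markers were higher in the supplemented library by at least 2-fold for 17 of the 19 measured, and the summed level of the 20 found was 975 against 203 FPKM. The same held for all 10 macrophage lipid markers found (2307 against 778 FPKM in sum), and 13 of 16 granulosa markers had a counting interval wholly below 1. Median log2 ratios (defined below) were 1.04 over 10 stromal, 0.44 over 6 theca, 0.33 over 6 luteal and 1.22 over 3 endothelial markers. The stromal, theca and luteal lists were mixed in direction, as 3 stromal, 1 theca and 3 luteal markers had a log2 ratio below 0. All 3 measured endothelial markers lay above 0. Some of the lists also share genes. LHCGR (-0.98) is in the granulosa, theca and luteal lists, and the luteal markers STAR and ABCA1 are also further pathway genes described below. No marker found in these lists was at 0 in either library. In bulk RNA, fewer cells of a type and less RNA per cell cannot be told apart, and the part of cell makeup in the values below was not tested.

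On the deposited scaling 12 of 15 synthesis enzymes (80%) had lower levels in the supplemented library, against 57.8% of all measured genes. Set against the median granulosa marker, 10 of the 15 (66.7%) were higher, against 89.3% of all measured genes. Of the other genes, 4 of 7 genes that move cholesterol inside the cell, store it or release it (57.1%) were higher as deposited, against 42.2% of all measured genes. The 15 synthesis enzymes found summed to 644 FPKM in the supplemented against 960 FPKM in the restricted library. The 7 transport and ester genes summed to 151 against 125 FPKM, of which NPC2 alone held 89.1 and 65.2 FPKM. The 4 sterol sensing genes summed to 232 against 243 FPKM and the pair of lipoprotein receptors to 52.1 against 79.0 FPKM. The quotient of summed synthesis level to summed transport level, which does not depend on how the libraries are scaled, was 4.27 with supplementation and 7.70 with restriction. The same quotient against the lipoprotein receptors was 12.4 against 12.1.

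The differences were small in size. The log2 ratio used throughout is log2((supplemented FPKM + 1) / (restricted FPKM + 1)), and a gene past 1 or -1 counts as 2-fold higher or lower by size. By that rule 0 of the 28 members were lower, against 2.85% of all measured genes, and 1 member (3.57%) was higher, against 5.87%. The member is STARD5. The authors' deposited table calls 0 of the 32 member entries, against 0.612% of all entries called up and 0.131% called down. Its lowest q-value among member entries was 0.657, for SC4MOL, and its p and q values also compare 1 library with 1 library.

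Counting error was judged from an exact 95% interval of each read ratio, supplemented over restricted. The interval lay wholly below 1 for 16 of 28 members (57.1%), against 35.7% of all measured genes, and wholly above 1 for 5 members (17.9%), against 20.4%. When reads were instead expressed as a share of each library's reads summed over entries, 13 members (46.4%) lay below 1 against 19.4% of all measured genes. On that scaling 8 members (28.6%) lay above 1 against 35.3%. The members are more deeply read than most genes, with a median of 1382.5 reads over both libraries against 605 for all measured genes, and intervals narrow with depth. Reads amplified by PCR are not independent molecules, so these intervals cover counting error only.

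**Figure D1:**
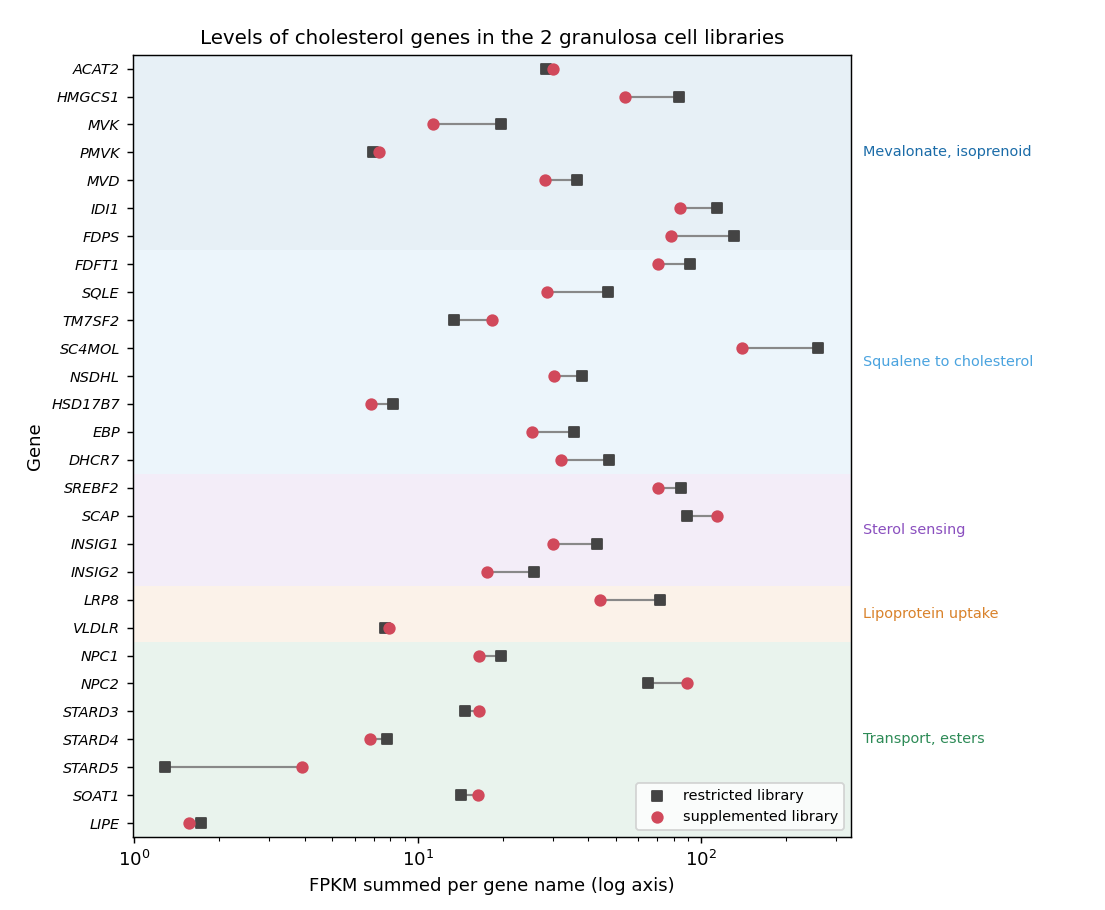
Level of each of the 28 genes in FPKM (log axis) in the restricted library (squares) and the supplemented library (circles), joined by a line and shaded by role, with 1 library per diet and no error bars. As deposited, the supplemented library is the lower point in 12 of the 15 synthesis enzymes (10 of the 15 lie above the median granulosa marker, as do 89.3% of all measured genes). It is the higher point in 9 of the 28 genes, namely ACAT2, PMVK, TM7SF2, SCAP, VLDLR, NPC2, STARD3, STARD5 and SOAT1.

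In the mevalonate and isoprenoid steps the median log2 ratio was -0.43 over 7 enzymes, beside -0.08 over all measured genes. ACAT2, the cytosolic thiolase that joins acetyl-CoA units, stood at 30.0 FPKM in the supplemented library and 28.5 FPKM in the other. HMGCS1, the synthase that makes HMG-CoA, stood at 54.0 against 83.5 FPKM. The interval of the thiolase spanned 1 (ratio 1.05, 0.949 to 1.17), while the synthase was 1.55-fold lower in the supplemented one (interval 1.46 to 1.64). MVK, which phosphorylates mevalonate, stood at 11.4 against 19.7 FPKM on 241 and 433 reads. PMVK, the kinase after it, stood at 7.30 against 6.94 FPKM on 61 and 60 reads. MVK was 1.74-fold lower (1.48 to 2.04), and a difference in PMVK was not detectable at this depth (ratio 1.05, 0.725 to 1.53).

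MVD, the decarboxylase that yields isopentenyl diphosphate, stood at 28.2 against 36.6 FPKM, and IDI1, its isomerase, at 84.4 against 114 FPKM. FDPS, the synthase of farnesyl diphosphate and the enzyme of these steps with the highest mean level, stood at 78.2 against 130.4 FPKM. On 1805 against 3047 reads it was 1.63-fold lower (1.54 to 1.73). FDPS has 1 entry on chromosome 1 (104059269 to 104067497 of Oar_v3.1, 72.2 against 116.7 FPKM) and another on chromosome 9 that spans 1059 bases (43113285 to 43114343, 6.03 against 13.7 FPKM). RefSeq places FDPS on the chromosome of the first entry, so reads of the second are uncertain, yet both entries were lower in the supplemented library. ACAT2 lies at 82696231 to 82722113 on chromosome 8, an interval the table also gives to TCP1 and MRPL18. The sources used here do not say how shared reads were split or whether strand was used.

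From squalene to cholesterol the median log2 ratio was -0.42 over 8 enzymes. FDFT1, squalene synthase, stood at 70.3 against 91.4 FPKM. SQLE, the squalene epoxidase that controls flux after the mevalonate steps, stood at 28.5 against 47.0 FPKM and was 1.65-fold lower on 1735 against 2961 reads (1.55 to 1.75). SC4MOL, the sterol oxidase of a ring demethylation cycle that also includes NSDHL and HSD17B7, was the most abundant member in either library, at 139 against 259 FPKM. It was 1.86-fold lower on 2091 against 4035 reads (1.77 to 1.97), the largest lower ratio among the 28 members, and lies on chromosome 17 from 391032 to 402989. NSDHL, the dehydrogenase that acts after it, stood at 30.4 against 38.1 FPKM, and HSD17B7, the ketoreductase that completes the cycle, at 6.86 against 8.20 FPKM. HSD17B7 had 122 against 151 reads, and its interval spanned 1 (ratio 0.836, 0.653 to 1.07). The NSDHL interval lay below 1 as deposited (0.797, 0.713 to 0.889) and spanned 1 by share of all reads (0.922, 0.826 to 1.03). The NSDHL locus overlaps an entry of CETN2 in the table.

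EBP, a sterol isomerase, stood at 25.4 against 35.6 FPKM and DHCR7, the reductase that makes cholesterol from its immediate precursor, at 32.0 against 47.4 FPKM. Together with MVD, IDI1, FDFT1 and NSDHL these enzymes formed a set of smaller differences, from 1.26-fold lower for NSDHL to 1.48-fold lower for DHCR7 (1.37 to 1.61), each with an interval below 1 as deposited. EBP is the sum of an entry on chromosome X at 23.3 against 34.7 FPKM and an entry on chromosome 4 that spans 754 bases, at 2.15 against 0.911 FPKM on 16 and 7 reads. TM7SF2, a sterol reductase of the endoplasmic reticulum, went the other way at 18.3 against 13.4 FPKM. On 428 against 324 reads it was 1.37-fold higher (1.18 to 1.58), the only enzyme of the 15 whose interval lay above 1 on the deposited scaling. By share of all reads ACAT2 also lay above 1 (1.22, 1.10 to 1.35) and TM7SF2 stood at 1.58 (1.37 to 1.84). TM7SF2 lies on chromosome 21 from 42635614 to 42639702.

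The make-up of the synthesis pathway within each library does not depend on scaling. SC4MOL held 21.6% of the summed FPKM of the 15 enzymes in the supplemented library and 27.0% in the restricted one. IDI1 held 13.1% against 11.9% and FDPS 12.1% against 13.6%, so that these enzymes exchanged ranks 2 and 3. TM7SF2 held 2.85% against 1.40% and ACAT2 4.66% against 2.97%. ACAT2 ranked 8 of 15 in the supplemented library and 11 in the restricted one, and no other enzyme moved by more than 2 places. FDFT1 (10.9% against 9.53%), HMGCS1 (8.39% against 8.70%) and DHCR7 (4.97% against 4.94%) kept ranks 4, 5 and 6.

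Among the sterol sensing genes the median log2 ratio was -0.38 over 4 genes, with SCAP apart from the rest. SCAP stood at 114.1 against 89.1 FPKM. It was 1.28-fold higher on 7206 against 5825 reads (1.24 to 1.33) and lies on chromosome 19 from 52141746 to 52191048. SREBF2 stood at 70.5 against 84.8 FPKM and was 1.20-fold lower (1.16 to 1.25), but by share of all reads its interval reached 1 (ratio 0.963, 0.926 to 1.00). INSIG1, itself a target of SREBP-2, stood at 30.1 against 42.9 FPKM and was 1.43-fold lower (1.26 to 1.62). INSIG2, the paralog that does not depend on SREBP in the same way, stood at 17.6 against 25.8 FPKM and was 1.46-fold lower (1.21 to 1.77). Both INSIG genes were lower by similar ratios, while their partner SCAP was higher.

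Of the lipoprotein genes, LRP8, an apolipoprotein E receptor, stood at 44.1 against 71.4 FPKM. It was 1.62-fold lower on 2316 against 3878 reads (1.54 to 1.70) and spans 27524283 to 27600322 on chromosome 1. VLDLR, a related receptor for very low density lipoprotein, stood at 7.94 against 7.65 FPKM on 409 and 408 reads (ratio 1.04, 0.903 to 1.19). The interval of VLDLR spanned 1 as deposited and lay above 1 by share of all reads (1.20, 1.05 to 1.38).

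The transport and ester genes had a median log2 ratio of 0.15 over 7 genes, which is 0.58 above the median of the synthesis enzymes. NPC2, the soluble lysosomal protein that picks up cholesterol, was the most abundant, at 89.1 FPKM in the supplemented against 65.2 FPKM in the restricted library. It was 1.37-fold higher on 2269 against 1718 reads (1.28 to 1.46) and lies on chromosome 7 from 82686801 to 82696354. NPC1, the membrane protein that receives cholesterol from NPC2, stood at 16.5 against 19.7 FPKM. NPC1 is split in the table into neighbouring entries on chromosome 23 with 1005 and 29 reads in the supplemented library, and both were lower there (13.5 against 15.3 and 2.95 against 4.43 FPKM). As deposited its summed read ratio was 0.875 (0.805 to 0.952), and by share of all reads it was 1.01 (0.932 to 1.10).

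STARD5, a cytosolic sterol carrier of the START family reported in macrophages, stood at 3.90 against 1.29 FPKM. With 38 against 13 reads it was 3.03-fold higher, with a wide interval of 1.58 to 6.19, and it lies on chromosome 18 from 26142227 to 26150244. STARD4, a cytosolic sterol carrier regulated by SREBP-2, stood at 6.80 against 7.80 FPKM on 64 and 76 reads (ratio 0.872, 0.615 to 1.23). STARD3, a carrier of late endosome membranes, stood at 16.4 against 14.7 FPKM (1.12, 0.971 to 1.29). Of these carriers STARD5 alone had an interval that excluded 1 as deposited, and by share of all reads STARD3 did too (1.30, 1.12 to 1.49). SOAT1, which esterifies cholesterol for storage, stood at 16.4 against 14.2 FPKM (1.15, 1.02 to 1.30). LIPE, hormone-sensitive lipase, which frees cholesterol from esters, stood at 1.57 against 1.73 FPKM on 107 and 122 reads (0.908, 0.694 to 1.19). The leukocyte and macrophage lipid markers, with median log2 ratios of 2.02 over 19 genes and 1.89 over 10 genes, were higher in the same library as NPC2, STARD5 and SOAT1, and their part in these values was not tested.

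**Figure D2:**
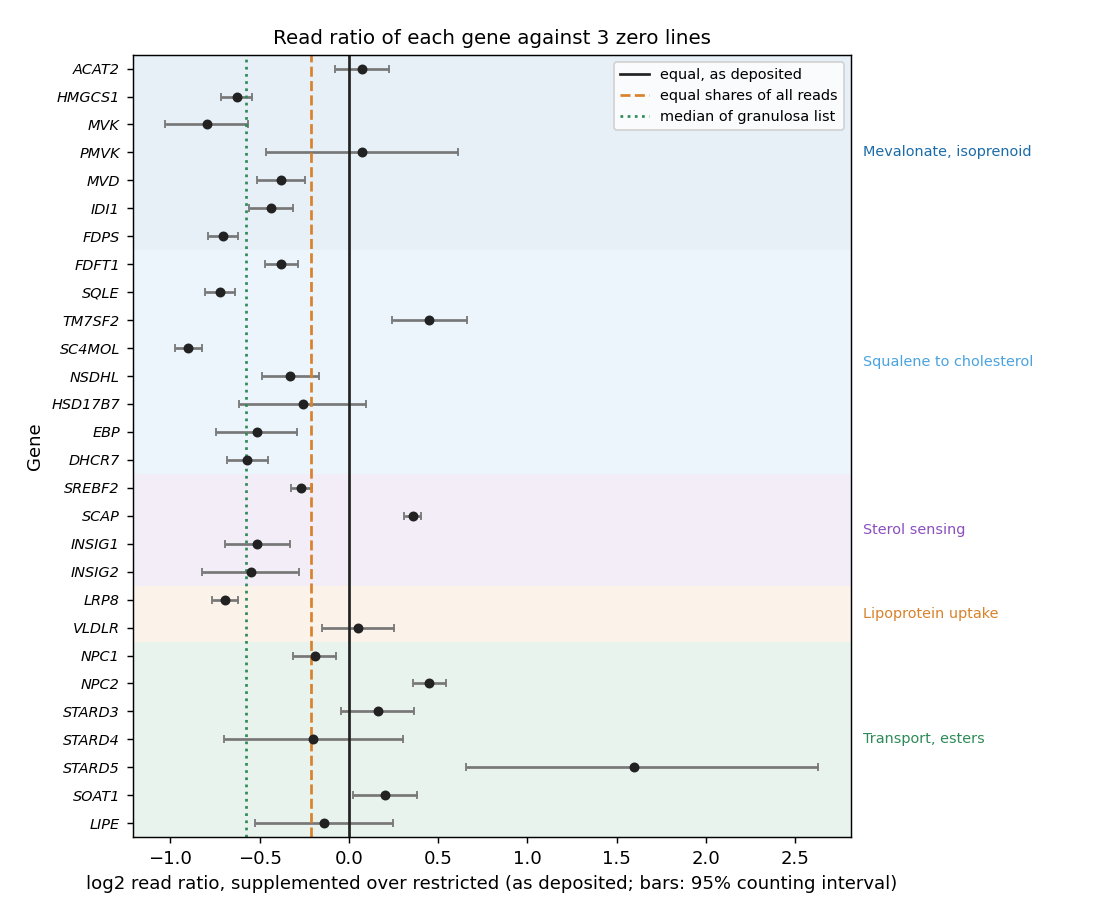
Log2 read ratio of each gene, supplemented over restricted, with its 95% counting interval, shaded by role. The lines mark equality as deposited (solid), equality by share of all reads (dashed, -0.21) and the median log2(FPKM + 1) ratio of 16 granulosa markers (dotted, -0.58). Most synthesis enzymes lie between the solid and dotted lines or near the dotted line, and SCAP, TM7SF2, NPC2, SOAT1 and STARD5 have intervals right of all 3.

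The direction of the synthesis genes depended on what they were set against. The median log2 ratio of the 15 enzymes was -0.43 as deposited and -0.22 by share of all reads, where all measured genes had a median of 0.11. Relative to all measured genes it was -0.35, and relative to the 16 granulosa markers it was 0.15. Of the 15 enzymes 5 lay below the median granulosa marker (HMGCS1, MVK, FDPS, SQLE and SC4MOL), as did LRP8, and the other 10 (66.7%) lay above it, against 89.3% of all measured genes. INHA, an inhibin subunit of granulosa cells, stood at 2910 against 7412 FPKM and FSHR, the receptor for follicle-stimulating hormone, at 65.5 against 74.3 FPKM, so the granulosa markers themselves ranged widely. The lowest log2 ratio among them was -1.72 for CYP19A1 (60.7 against 203 FPKM), which the authors' deposited table calls. AMHR2 (0.27) and WT1 (0.28) lay above 0 and the other 14 markers below it. All 7 transport and ester genes lay above the granulosa median, by 0.33 to 1.68 on the log2 scale, a share near that of all measured genes. Whether the lower synthesis levels reflect the makeup of the scraped cells was not tested.

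Partner genes were next compared within each library, since a quotient of 2 genes does not change with library scaling. The 15 pairs were drawn up with the values known, so the intervals are descriptions of counting error. Quotients are given in FPKM, while their ratios and intervals were computed from reads. The 2 can differ, most of all for genes summed over more than 1 entry. The interval of the ratio of quotients excluded 1 in 11 pairs, above 1 in 9 and below 1 in 2. The side depends on which gene of a pair is written first, so this split holds no direction. No share over other gene pairs was computed, so no excess can be read from the count. The FPKM quotient of SCAP to SREBF2 was 1.62 in the supplemented library and 1.05 in the restricted one, a ratio of 1.54 (1.46 to 1.62). SCAP to INSIG1 was 3.79 against 2.07 (ratio 1.83, 1.60 to 2.08), whereas INSIG1 to INSIG2 was 1.71 against 1.66 (ratio 1.03, 0.817 to 1.29). No difference in the INSIG quotient was detectable at this depth, and SCAP was higher relative to its cargo and to its retention partner.

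NPC2 to NPC1 was 5.41 against 3.31 in FPKM, with a ratio from reads of 1.56 (1.41 to 1.74). The lysosomal partners thus differed in opposite directions as deposited. SC4MOL to NSDHL was 4.57 against 6.80, a 1.48-fold lower quotient in the supplemented library (1.31 to 1.68). HSD17B7 to NSDHL was 0.226 against 0.215 (ratio 1.05, 0.800 to 1.38). The oxidase of the ring demethylation cycle was lower relative to the dehydrogenase, while for the ketoreductase no difference was detectable at this depth. TM7SF2 to LBR, a nuclear membrane protein with the same sterol reductase activity, was 1.87 against 1.01 (ratio 1.86, 1.57 to 2.21). LBR itself stood at 9.78 against 13.3 FPKM, so the pair went in opposite directions as deposited. VLDLR to LRP8 was 0.180 against 0.107 (1.68, 1.45 to 1.95), and STARD5 to STARD4 was 0.574 against 0.165 (3.45, 1.63 to 7.70). PMVK to MVK was 0.643 against 0.352 (1.83, 1.21 to 2.75).

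FDFT1 to FDPS had a ratio of quotients of 1.25 (1.15 to 1.37) and SQLE to FDFT1 of 0.789 (0.722 to 0.862). ACAT2 to ACAT1, the mitochondrial thiolase, had a ratio of 1.29 (1.14 to 1.46). The intervals of STARD4 to STARD3 (0.780, 0.534 to 1.14) and LIPE to SOAT1 (0.789, 0.585 to 1.06) spanned 1.

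**Figure D3:**
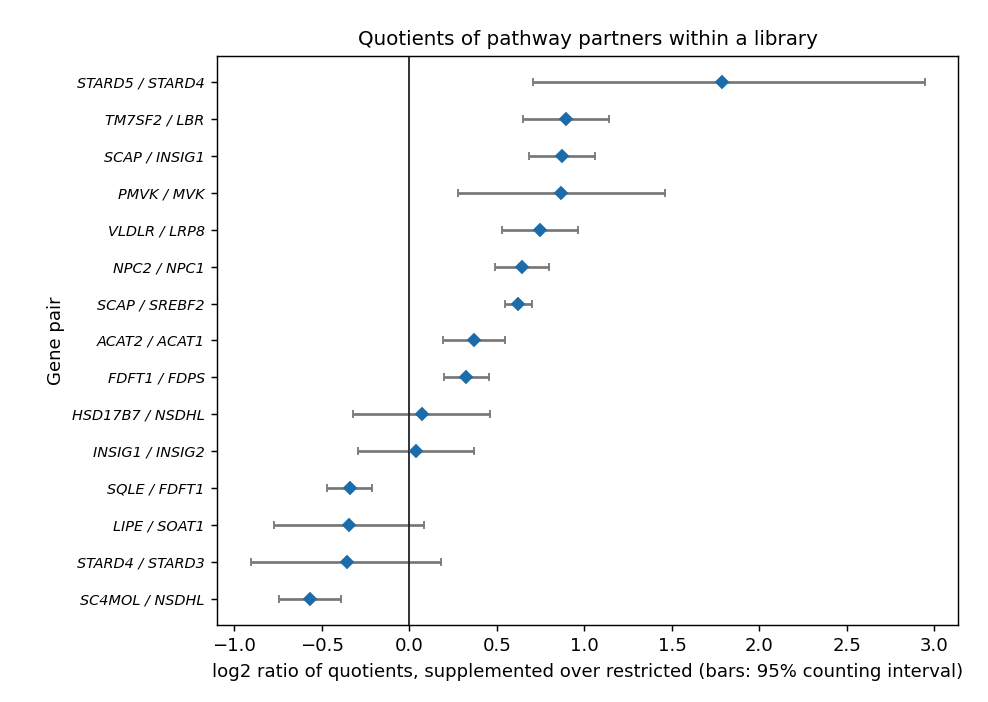
Log2 of the ratio between the libraries of the read quotient of 2 partner genes, with exact conditional 95% counting intervals, sorted by size. Intervals right of 0 (9 pairs, among them TM7SF2 to LBR and SCAP to SREBF2) mean a higher quotient in the supplemented library, and those left of 0 (2 pairs, SC4MOL to NSDHL and SQLE to FDFT1) a lower one. The side depends on which gene of a pair is written first.

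Further genes of the pathway were taken from a list of 61 names, of which 53 were found and 45 measured. Their median log2 ratio was -0.0061, with 24 below 0 and 21 above. Their counting intervals lay wholly below 1 for 14 genes (31.1%, against 35.7% of all measured genes) and above 1 for 14 genes (31.1%, against 20.4%). On the share scaling 8 lay below 1 (17.8%, against 19.4%) and 24 above (53.3%, against 35.3%). By size 4 were higher (8.89%, against 5.87%) and 0 lower (against 2.85%). The list was drawn up with earlier results of these data known, so its shares are descriptions and no excess can be read from them.

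The 4 genes higher by size were STAR, ABCG1, CAV1 and LIPA. STAR, which carries cholesterol into mitochondria for steroid synthesis, stood at 61.5 against 17.2 FPKM. It is called up in the authors' deposited table (q = 0.0381). ABCG1, a cholesterol exporter also listed here among macrophage lipid markers, stood at 4.10 against 1.33 FPKM. CAV1, the membrane protein of caveolae, stood at 16.4 against 7.15 FPKM, and LIPA, the lysosomal acid lipase that frees cholesterol for NPC2, at 62.7 against 30.7 FPKM. LIPA and NPC2 were thus both higher in the supplemented library, by 2.04-fold and 1.37-fold.

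ABCA1, MYLIP, SCARB2, NR1H2 and NR1H3 fall outside the naming rule and were chosen after their values were seen. ABCA1, a cholesterol exporter, stood at 1.77 against 0.512 FPKM and is called up in the authors' deposited table (q = 0.0272). On 1178 against 352 reads it was 3.46-fold higher (3.07 to 3.91). MYLIP, a ubiquitin ligase that degrades lipoprotein receptors, stood at 14.2 against 7.08 FPKM (2.01-fold, 1.70 to 2.39). The log2 ratios of ABCA1 (0.88) and MYLIP (0.92) missed the size rule because 1 is added to each FPKM. SCARB2, a lysosomal membrane protein, had the lowest log2 ratio of the 45 genes, -0.87, at 105 against 193 FPKM. The genes of the liver X receptors stood at 24.7 against 24.9 FPKM for NR1H2 (0.994, 0.917 to 1.08) and 4.49 against 3.97 FPKM for NR1H3 (1.13, 1.02 to 1.25).

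**Figure D4:**
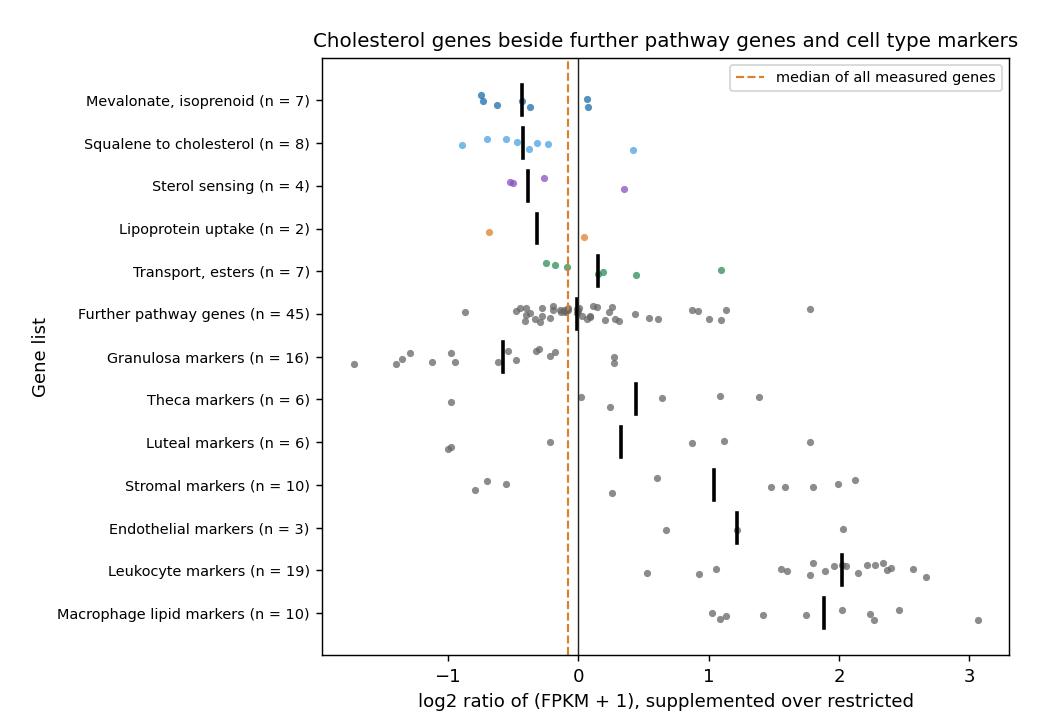
Log2 ratio of (FPKM + 1), supplemented over restricted, of each measured gene (points) in the 5 role groups, the further pathway list and the marker lists, with black bars at list medians. The synthesis medians (-0.43 and -0.42) lie between that of the granulosa markers (-0.58) and that of all measured genes (-0.08), and the leukocyte and macrophage lipid markers lie at the far right.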

How the data were processed

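The table has 1 line per transcript entry. Per the submitters' processing notes, TopHat and Cuffdiff were used with the build Oar_v3.1 (no versions given), and libraries had 15 PCR cycles per the labels' protocols. The FPKM columns are as deposited by the authors. The other value columns hold a signal, deposited by the authors as reads divided by a size factor. Division by the value of 1 read (1.02 supplemented, 0.983 restricted) gave whole reads within 0.02 for 98.5% and 98.3% of entries above 0. P-values and q-values are the authors' deposited ones, with calls at q below 0.05.

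FPKM and reads were summed per gene name in Python 3.11.15 (numpy 2.4.6, pandas 2.3.3, scipy 1.17.1). Unnamed entries (4419) stayed separate. Of the members, 27 of 28 matched a RefSeq symbol of ARS-UI_Ramb_v3.0, used for names only. The exception was SC4MOL, which matched no symbol or synonym, so its name and chromosome were not checked. Coordinates are Oar_v3.1, with 1 added to the deposited start. Read ratios keep the authors' scaling, with Clopper-Pearson 95% intervals, and pair intervals are exact conditional odds ratios. With 1 library per group a count model has no residual degrees of freedom, so it was not fitted and calls no genes. The size and interval rules were run on simulated Poisson counts, which checks the calculation only. Such counts hold no PCR duplicates and no spread between ewes, so they cannot show how the rules perform on these libraries.

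Members, lists and pairs were chosen with earlier results of these data known. Every member is named. Further pathway genes are named where past the size rule or where they partner a member, with 5 exceptions stated beside their values. Some further pathway genes are not reported here and are left out of the counts for that list and the pairs.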

Additional observations from a re-analysis of the deposited data

How the results depend on the processing

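Centred on the granulosa list, the median log2 ratio was 0.15 for mevalonate and isoprenoid enzymes and 0.15 for squalene to cholesterol enzymes. It was 0.20 for sterol sensing genes, 0.26 for the lipoprotein receptors and 0.73 for transport and ester genes. With this centring 3 of the 28 members were at least 2-fold higher. Of the 11927 measured genes, 1961 passed the size rule in either direction, and 93.7% of those were higher. Most genes past the rule thus lay on the higher side, and no excess can be read from the 3 members. Under that centring the sign changed for 13 members, namely MVD (0.21), IDI1 (0.15), FDFT1 (0.20), NSDHL (0.26), EBP (0.11), DHCR7 (0.024), SREBF2 (0.32), INSIG1 (0.079), INSIG2 (0.052), NPC1 (0.33), HSD17B7 (0.35), STARD4 (0.40) and LIPE (0.49), by the construction of the centring. By share of all reads the median was -0.22 for mevalonate and isoprenoid enzymes, -0.17 for sterol sensing genes and -0.12 for the lipoprotein receptors. The count of members at least 2-fold higher was 0 with a pseudocount of 5 and 0 among genes averaging 5 FPKM or more, since STARD5 has a mean level of 2.59 FPKM. Among all genes past the size rule, 67.3% were higher as deposited, 80.6% by share of all reads and 93.7% centred on the granulosa list. A pseudocount of 0.1 and the most abundant entry per name left all 28 member ratios within their counting intervals. With a pseudocount of 5 the log2 ratios of STARD5 (0.50) and SQLE (-0.63) fell outside theirs. By share of all reads the sign changed for STARD4 and LIPE, whose intervals span 1. On that scaling 19 of the 28 members fell outside their counting intervals. Centred on all measured genes 6 did so, and centred on the granulosa list 27 did. No paired analysis was possible because each diet has 1 library, and for the same reason no library could be left out.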
